A study of Homo sapiens with 6 samples.

Results

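The genes described here were nearly silent in CAL27 cells carrying a control plasmid and had more reads in all libraries with overexpressed RBM24. CAL27 is an established line from a human squamous carcinoma of the tongue, and total RNA was sequenced as Illumina read pairs of 150 nt in 3 libraries with RBM24 overexpression and 3 with the control plasmid. All 6 libraries come from this 1 line. The sources used here do not give the plasmid's promoter, the time after transfection or whether the libraries came from separate cultures, so any p-value reflects the spread among the libraries alone, which may be technical. The libraries held 53558773 to 68804210 gene counts with RBM24 and 55139782 to 62156648 with the control plasmid. Values are in CPM, the usual scaling of a gene's count by its library's total in the deposited count table, unless another unit is named.

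A member had to be a protein-coding or lncRNA gene with a mean control CPM under 1, a lowest RBM24 CPM at least 1.5 times the highest control CPM, and at least 30 counts summed over the RBM24 libraries. Of 32353 genes in the count table, 12530 met the limit on type and control level, and 3473 of these had enough counts. The ratio was met by 47 genes, 1.35% of the 3473. Leaving out 8 genes by name (TEX14, ID2, APC2, TUBB3, NEB, ALPG, AZU1 and GADD45G) left 39 members, 21 protein-coding and 18 lncRNA. The rule used the same libraries and the same contrast as every value below, so that the members' differences and the lack of overlap between their groups are a description of the choice, with no test. With the groups exchanged, 8 of 3155 genes (0.254%) met the same limits. Among the 3473 genes, the lowest RBM24 library exceeded the highest control in 413 (11.9%), and the reverse held in 121 (3.48%). These shares are not mirror images, since the 3473 genes had to be low in controls and to have at least 30 RBM24 counts. Those limits favour the first direction, so nothing is read from the difference.

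RBM24 is an RNA-binding protein best known for regulating alternative splicing and mRNA stability in heart and skeletal muscle. RBM24 itself averaged 121 ± 8.94 CPM with overexpression and 2.91 ± 0.620 CPM in controls (SD, n = 3 each). In these bulk samples, more cells that express a gene and more RNA per cell cannot be told apart. Near-silent genes are those for which a cell line makes few transcripts, commonly because the gene belongs to another tissue. The cells carried the markers of their label. All 9 squamous epithelial markers (KRT5, KRT14, KRT6A, KRT17, TP63, SFN, DSG3, CDH1 and EPCAM) averaged at least 1 CPM, with summed levels of 1942 to 1952 CPM with RBM24 and 1745 to 1788 CPM in controls. Of the markers of other cell types, COL1A1 and PDGFRB of 6 fibroblast genes, CD14 and ITGAM of 6 immune genes and CDH5 of 4 endothelial genes averaged at least 1 CPM, as did 0 of 6 muscle and 0 of 4 neuronal genes. The fibroblast markers summed to 16.3 to 17.0 CPM with RBM24 and 13.4 to 16.6 CPM in controls, the immune ones to 19.2 to 21.2 and 19.1 to 20.9, and the endothelial ones to 8.74 to 9.87 and 9.34 to 11.8. The muscle markers summed to 0.448 to 0.528 CPM with RBM24 and 0.177 to 0.272 CPM in controls, mostly from ACTA1 in the RBM24 libraries. MYOD1 and MYOG have no row in the count table, in which every listed gene has at least 1 count. The neuronal markers summed to at most 0.0581 CPM with RBM24 and at most 0.0161 CPM in controls, and SNAP25 and STMN2 have no row. The part of any other cell type in the members' values was not tested.

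RefSeq start regions (GRCh38.p14) were found by symbol for 16 of the 39 members. The 130 bases before the start are shown for 4 protein-coding members. SCG5 and DLX2 are among those with the most reads. MYRFL and IL17F both hold the letters TATAAA, and IL17F had no control read. Each stretch is written 5′ to 3′ on the gene's strand, with capitals for matches to any of 6 motifs on either strand.
SCG5: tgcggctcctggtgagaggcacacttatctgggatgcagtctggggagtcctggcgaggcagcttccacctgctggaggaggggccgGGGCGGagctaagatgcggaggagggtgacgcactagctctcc
DLX2: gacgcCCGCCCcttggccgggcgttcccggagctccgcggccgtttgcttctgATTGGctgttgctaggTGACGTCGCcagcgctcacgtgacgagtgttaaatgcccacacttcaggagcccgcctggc
MYRFL: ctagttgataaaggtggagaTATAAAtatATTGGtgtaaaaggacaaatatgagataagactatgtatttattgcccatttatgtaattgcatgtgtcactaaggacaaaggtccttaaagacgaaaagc
IL17F: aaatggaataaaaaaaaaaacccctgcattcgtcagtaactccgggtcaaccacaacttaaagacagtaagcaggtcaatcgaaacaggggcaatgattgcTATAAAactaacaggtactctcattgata
The stretches lie at chr15:32641580-32641709 (plus strand), chr2:172102901-172103030 (minus strand), chr12:69825097-69825226 (plus strand) and chr6:52244501-52244630 (minus strand). In IL17F a TATA box (TATAAA) began 29 bases before the start. In MYRFL the same letters lay further away, 110 bases before it. Starts differ between annotations. In CDK15, FAM209A, RHCE and SCN1A the RefSeq start lay more than 1000 bases inside the gene as GENCODE 29 places it, so their windows are not at that gene's outer start. In the other 12 the starts were at most 89 bases apart. Over the whole window of 250 bases before to 50 after the start, TATAAA was present in 6 of 16 members (37.5%), which were CDK15, FBXW10, IL17F, LURAP1L-AS1, MYRFL and RHCE, and in 3264 of the 27305 start regions of all genes. The CCAAT box (CCAAT) was present in 9 members (56.2%) and 35.7% of all start regions, and the GC box (GGGCGG) in 4 (25.0%) and 44.6%. The core of the antioxidant response element (TGACNNNGC) was present in 3 members (18.8%), CDK15, DLX2 and NPC1L1, and in 13.6% of all start regions. The AP-1 site (TGANTCA) was present in 3 (18.8%) and 7.76%, and the cAMP response element (TGACGTCA) in 0 and 1.98%. The antioxidant core and the cAMP element both begin with TGAC, and the shares are a description only.

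The members stayed low with RBM24. Their mean CPM with RBM24 ran from 0.169 to 1.51, with a median of 0.317, and their mean control CPM from 0 to 0.793, with a median of 0.0862. In 5 members the RBM24 mean reached 1 CPM, and in 28 it stayed under 0.5 CPM. The other 34 thus stayed under the limit of 1 CPM that defined near-silent, and "switched up" is too strong a name for the set. Measured per length, in the authors' deposited FPKM, 1 member reached a mean of 1 with RBM24 and 17 stayed under 0.1. Over the 38 members with any control count, the ratio of summed CPM, RBM24 over control, had a median of 3.01 and a range of 1.86 to 15.6, and it was at least 2 in 36 members and at least 4 in 10. A 95% exact binomial interval on the counts lay above 1 for all 38, with a lowest bound of 1.15. These intervals cover counting error only, and the rule had already selected on the same counts. The filter on low counts passed 32 members and not the other 7. The edgeR quasi-likelihood test with Benjamini-Hochberg adjustment called 13 members higher (adjusted p under 0.05), where it called 0.855% of all 17887 tested genes higher and 0.682% lower. Nothing is read from that count, since the rule used the contrast.

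**Figure D1:**
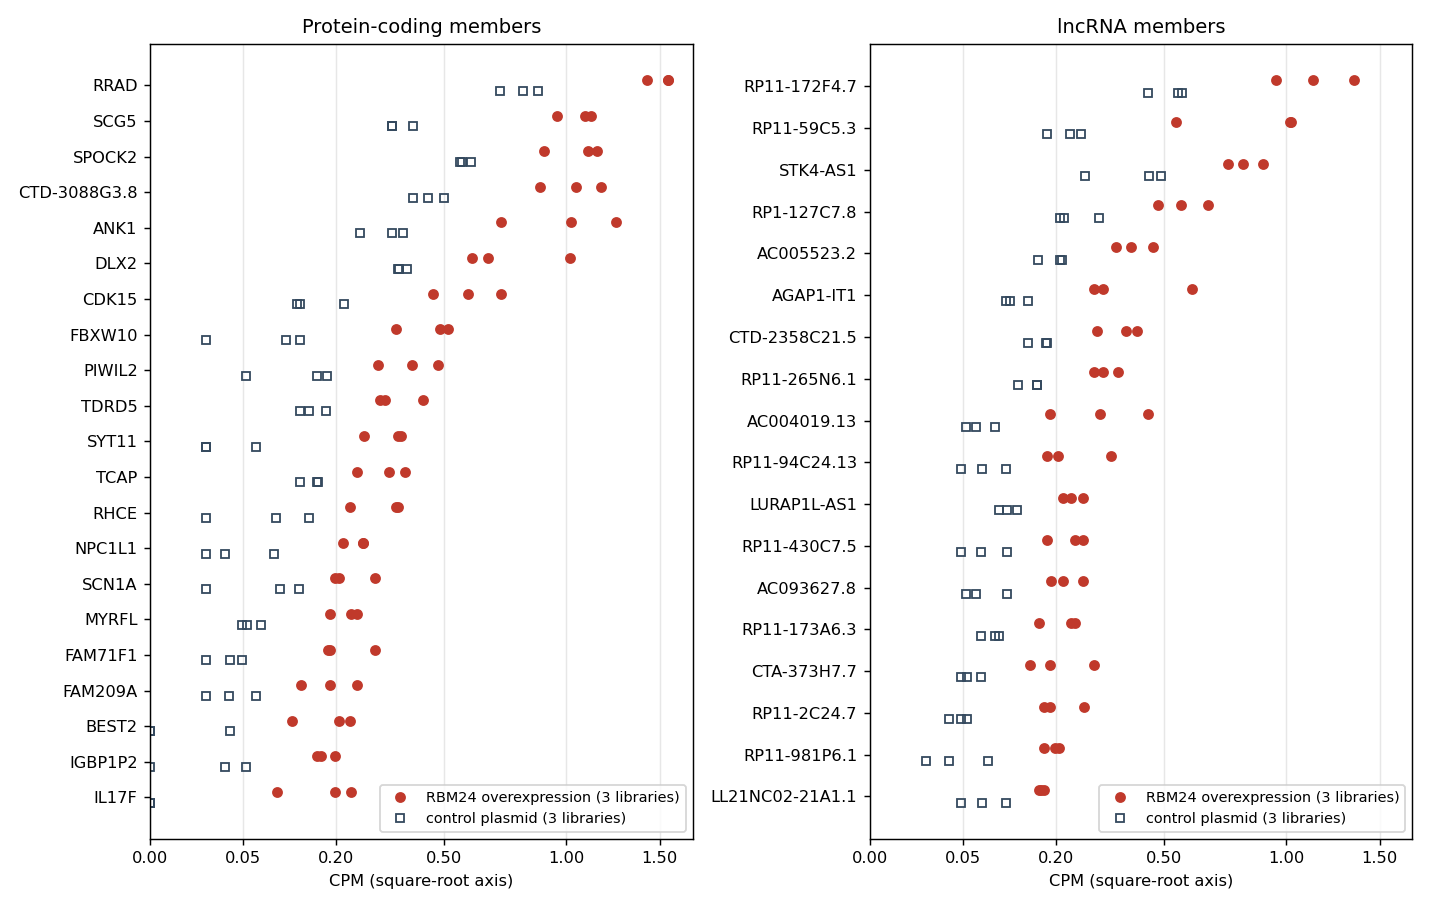
CPM of all 39 members in each library, on a square-root axis, with protein-coding genes on the left and lncRNAs on the right. Filled circles are the 3 RBM24 libraries and open squares the 3 control libraries. The highest member, RRAD, averages 1.51 CPM with RBM24, and most members lie under 0.5 CPM in both groups.

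Signalling proteins and regulators included RRAD, the member with the most reads. RRAD encodes a small GTPase of the RGK family that inhibits voltage-gated calcium channels. It lies at GRCh38 chr16:66921679-66925644 on the minus strand. RRAD stood at 1.42, 1.55 and 1.55 CPM in the RBM24 libraries, against 0.802, 0.707 and 0.869 CPM in the control libraries. The raw counts behind these values were 98, 83 and 94 with RBM24 and 45, 39 and 54 in controls. RRAD was 1.89-fold higher (95% counting interval 1.53 to 2.33; edgeR log2 change 0.89, SE 0.196), among the smallest ratios of the set, and its RBM24 libraries lay close together. DLX2, a homeobox transcription factor of forebrain and jaw development, had 1.02, 0.597 and 0.660 CPM with RBM24, against 0.357, 0.381 and 0.354 CPM in controls. RBM24 library 1 stood above the other RBM24 libraries for this gene, and without it the log2 change was 0.75 in place of 1.04 (SE 0.267). CDK15 encodes a cyclin-dependent kinase of the PFTAIRE type. It had 0.581, 0.710 and 0.462 CPM with RBM24, against 0.125, 0.218 and 0.129 CPM in controls, which is 3.72-fold (interval 2.42 to 5.91). FBXW10, an F-box protein with WD repeats of the kind that selects substrates for ubiquitin ligases, had 24, 26 and 31 counts with RBM24, against 6, 1 and 8 in controls. It has near-identical copies in the genome, so the split of its reads is uncertain. MYRFL, a relative of the myelin regulatory factor gene, had 16, 10 and 15 counts with RBM24 and 4, 3 and 3 in controls.

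Secreted and matrix proteins form a second group. SCG5 encodes the 7B2 protein, a chaperone of the prohormone convertase PC2 in neuroendocrine secretory granules, and lies at chr15:32641676-32697098 on the plus strand. It stood at 1.09, 1.12 and 0.957 CPM with RBM24, against 0.339, 0.399 and 0.338 CPM in controls. The difference was 2.95-fold (interval 2.21 to 3.99; log2 change 1.53, SE 0.248), and no library of either group stood apart. SPOCK2 encodes testican-2, a proteoglycan of the extracellular matrix. It had 1.10, 0.896 and 1.16 CPM with RBM24, against 0.552, 0.562 and 0.595 CPM in controls, and with a ratio of lowest RBM24 to highest control CPM of 1.51 it lay just inside the limit. IL17F, a cytokine of T helper 17 cells that acts on epithelia, was the member with no count in any control library. It had 16, 5 and 12 counts with RBM24 and 0, 0 and 0 in controls. Set against the limit of 3 counts that a zero over the control group allows, its observed RBM24 counts were 10.4-fold higher. That value leaves out the counting error of the RBM24 counts, so it is not a lower bound. RBM24 library 2, at 0.0934 CPM, lay below the other RBM24 libraries, at 0.233 and 0.198.

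Proteins at membranes form another group. ANK1 encodes the ankyrin that ties membrane proteins to spectrin in red blood cells. It had 49, 67 and 62 counts with RBM24, against 19, 14 and 23 in controls, a 3.01-fold difference (interval 2.22 to 4.14). RBM24 library 1 was the lowest of its group, and it lay above every control library, as the rule asks of every member. SYT11, a synaptotagmin of vesicle and membrane traffic, had 25, 19 and 16 counts with RBM24, against 1, 1 and 4 in controls. That is 9.48-fold with an interval of 4.11 to 26.9, and control library 3 held most of the control reads: the log2 change was 3.15 with all libraries and 3.99 without it. BEST2, a bestrophin chloride channel of secretory epithelia, had 8, 11 and 14 counts with RBM24, against 0, 2 and 0 in controls. With 2 control counts in all, its ratio of 15.6 has an interval of 4.00 to 135. NPC1L1, the intestinal cholesterol transporter, had 18, 14 and 13 counts with RBM24 and 5, 1 and 2 in controls. Control library 1 held 5 of its 8 control counts, and without that library the log2 change was 3.14 in place of 2.33. SCN1A, a voltage-gated sodium channel of neurons, had 20, 11 and 12 counts with RBM24, against 1, 7 and 6 in controls. RHCE, which carries the C and E antigens of the Rh blood group, had 24, 19 and 14 counts with RBM24 and 1, 5 and 9 in controls. Its near-identical neighbour RHD averaged 0.00550 CPM with RBM24 and 0.0120 CPM in controls, and reads could be split between them.

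**Figure D2:**
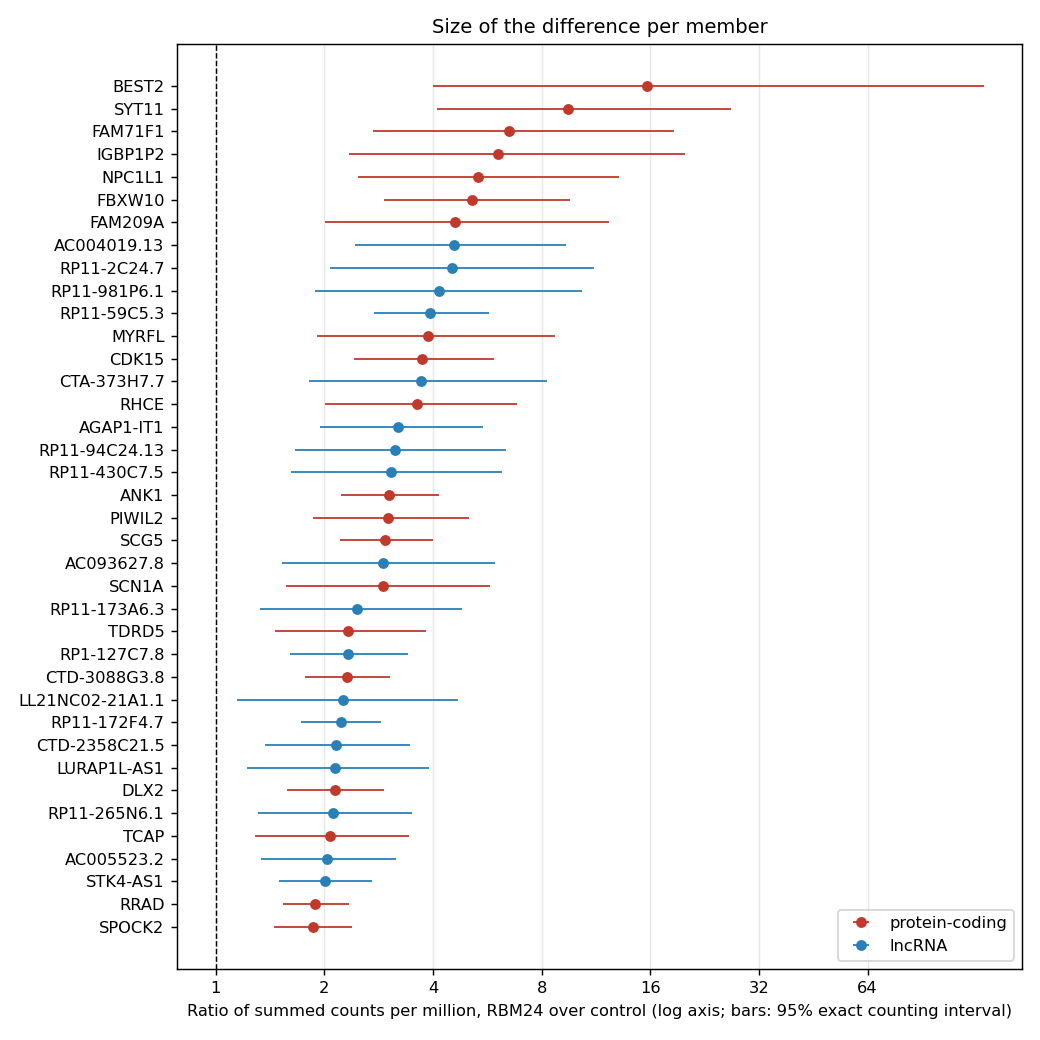
Ratio of summed CPM, RBM24 over control, for the 38 members with any control count, on a log axis; bars are 95% exact counting intervals and the dashed line marks equal levels. SPOCK2 lies lowest at 1.86 and BEST2 highest at 15.6, and the bars widen toward the members with the fewest control counts.

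Genes of the germ line and of muscle made up a smaller group. PIWIL2, an Argonaute protein that binds piRNAs in the germ line, had 33, 16 and 24 counts with RBM24, against 3, 10 and 10 in controls. TDRD5, which in mouse is needed for piRNA production and sperm formation, had 21, 17 and 26 counts with RBM24, against 10, 8 and 8 in controls. Control library 1 was the lowest for PIWIL2 and the highest for TDRD5, so the control libraries did not keep 1 order over both genes. Neither FAM71F1 nor FAM209A is given a role here. FAM71F1 had 20, 10 and 11 counts with RBM24 and 1, 2 and 3 in controls, which is 6.48-fold (interval 2.73 to 18.7). FAM209A had 9, 10 and 15 counts with RBM24 and 2, 1 and 4 in controls. Its close paralog FAM209B averaged 0.182 ± 0.0868 CPM with RBM24 and 0.117 ± 0.0331 CPM in controls (SD, n = 3 each), and reads may be split between the pair. TCAP encodes telethonin, which caps titin at the sarcomere's Z-disc. It had 17, 20 and 20 counts with RBM24 and 9, 9 and 8 in controls, with a lowest-to-highest ratio of 1.51 just inside the limit. The remaining protein-coding members carry names without an established role here. CTD-3088G3.8 had 1.05, 0.877 and 1.17 CPM with RBM24, against 0.446, 0.399 and 0.499 CPM in controls. IGBP1P2 is typed as protein-coding in the deposited table though described there as a pseudogene, and it had 11, 9 and 12 counts with RBM24 and 3, 0 and 2 in controls.

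The 18 lncRNA members had a lower median ratio, which was not tested. Their ratio of summed CPM had a median of 2.69 and a range of 2.00 to 4.58, against a median of 3.31 and a range of 1.86 to 15.6 in the 20 protein-coding members with a control count. RP11-172F4.7 on chromosome 9 led with 1.13, 0.952 and 1.35 CPM in the RBM24 libraries, against 0.446, 0.562 and 0.547 CPM in the control libraries. In deposited FPKM it was the highest member, at 1.62 ± 0.281 with RBM24 and 0.733 ± 0.0987 in controls (SD, n = 3 each). RP11-59C5.3 had 1.02, 0.541 and 1.02 CPM with RBM24, against 0.232, 0.181 and 0.257 CPM in controls, a 3.91-fold difference (interval 2.74 to 5.70) in which RBM24 library 2 lay well below the other RBM24 libraries. STK4-AS1, which lies head to head with the kinase gene STK4, had 0.741, 0.803 and 0.891 CPM with RBM24, against 0.267, 0.490 and 0.450 CPM in controls. RP1-127C7.8 had 33, 30 and 40 counts with RBM24 and 17, 12 and 13 in controls. RP11-2C24.7 had 12, 10 and 16 counts with RBM24, against 2, 3 and 3 in controls, and with 4.50-fold (interval 2.07 to 11.2) it was among the lncRNAs that differed most. The other 13 were AC005523.2, AGAP1-IT1, CTD-2358C21.5, RP11-265N6.1, AC004019.13, RP11-94C24.13, LURAP1L-AS1, RP11-430C7.5, AC093627.8, RP11-173A6.3, CTA-373H7.7, RP11-981P6.1 and LL21NC02-21A1.1. They had means of 0.169 to 0.401 CPM with RBM24 and 0.0447 to 0.195 CPM in controls.

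The order of the members by level changes once length is taken into account. By mean FPKM with RBM24, RP11-172F4.7 was followed by RRAD, at 0.873 ± 0.0462 with RBM24 and 0.457 ± 0.0451 in controls, and by 2 further lncRNAs (SD, n = 3 each). CTD-2358C21.5 had 0.630 ± 0.0985 FPKM with RBM24 and 0.293 ± 0.0379 in controls, and RP1-127C7.8 had 0.613 ± 0.0950 and 0.263 ± 0.0493. These 2 lncRNAs do not differ beyond their spread. SCN1A, whose transcripts are long, was lowest at 0.0100 with RBM24 and 0.00333 in controls, at the 2-decimal resolution of the deposited values.

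Just inside the limit of 1.5 lay SPOCK2 (1.51), STK4-AS1 (1.51) and TCAP (1.51). Just outside it were the genes LINC00917 (1.496), PDE2A (1.49) and SNRK-AS1 (1.49). PDE2A, a phosphodiesterase of cyclic nucleotides, had 0.363, 0.392 and 0.264 CPM with RBM24, against 0.0713, 0.109 and 0.177 CPM in controls, so that the edge of the set falls among genes with similar values.

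The rule asked every RBM24 library to exceed every control library, so the following is a description. The 39 members together had 17.7, 17.6 and 18.4 CPM in RBM24 libraries 1 to 3, against 6.42, 6.67 and 6.97 CPM in control libraries 1 to 3. The RBM24 level itself was 126, 111 and 126 CPM in the RBM24 libraries and 2.30, 2.88 and 3.54 CPM in the control libraries. RBM24 library 1 was the highest for 10 members, library 2 for 13 and library 3 for 16, and control libraries 1 to 3 were the highest control for 11, 15 and 13.

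**Figure D3:**
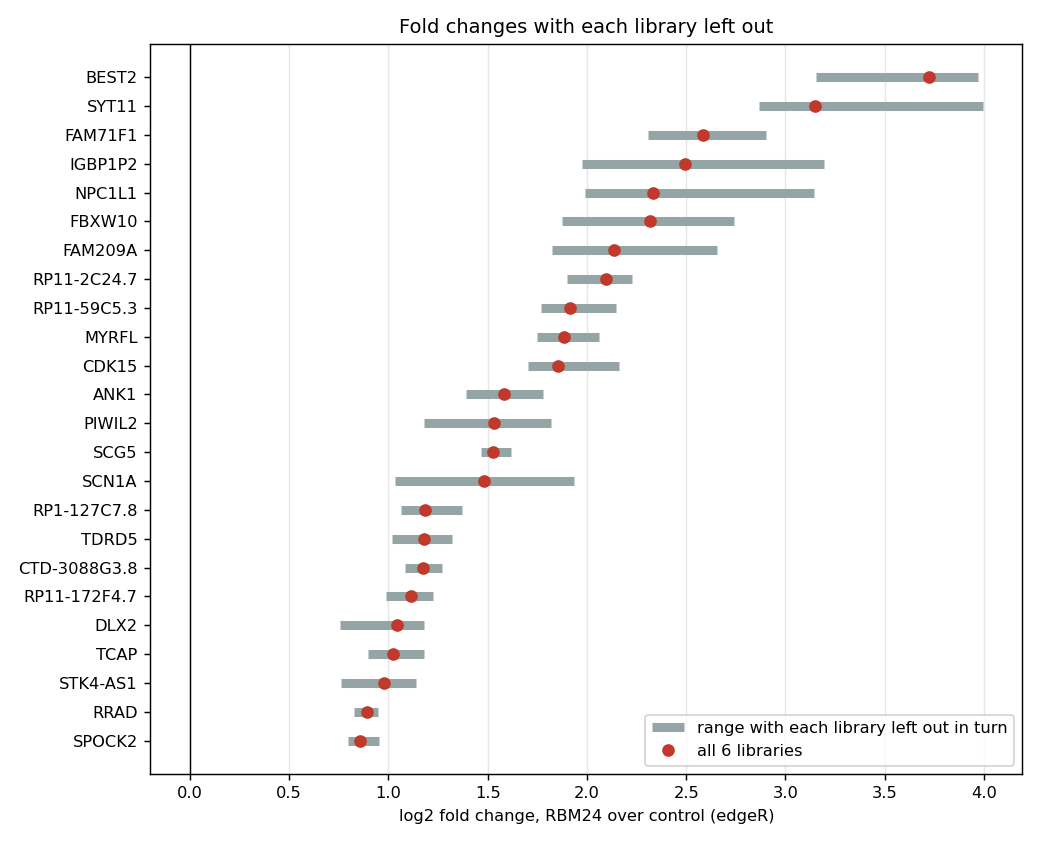
Log2 fold change, RBM24 over control, from edgeR for 24 members described with full values. Points use all 6 libraries and grey bars span the values with each library left out in turn; for BEST2 the fit without control library 2 is not drawn because no control count remained. All bars stay above 0, which the rule fixed in advance, and run from 0.75 for DLX2 to 3.99 for SYT11.

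Low counts can include reads of another gene at the same place. The strand setting of the counting is not known here, so sense and antisense reads cannot be told apart. GENCODE 29 places 37 of the 39 members, and 16 of these (43.2%) overlap a gene with a higher count, as do 46.6% of 3258 other near-silent genes with enough counts and a position. On the opposite strand the shares were 32.4% of members and 34.6% of the others. For 15 of the 16 members the highest-count overlapping gene did not pass the test in edgeR (0 called; 2 higher and 2 lower at an unadjusted p under 0.05; DESeq2 called 1 higher and 1 lower), with log2 changes from -0.19 to 0.37. In 10 of the 16 all exon bases of the member lay inside the other gene. In 8 of the 16, not all of them among those 10, none lay on the other gene's exons. On the opposite strand, CTA-373H7.7 had 82.2% of its exon bases on exons of MIAT, and RP11-265N6.1 had 41.0% on exons of SNAP23. RP11-59C5.3 lies antisense within CTBP2, a transcriptional corepressor gene with 116 ± 2.25 CPM in RBM24 libraries and 107 ± 5.67 CPM in control libraries (SD, n = 3 each). AGAP1-IT1 lies within an intron of AGAP1, which had 31.3 ± 0.802 CPM with RBM24 and 28.8 ± 2.32 CPM in controls (SD, n = 3 each), while AGAP1-IT1 was 3.20-fold higher. AC005523.2 lies wholly on exons of FEM1A on the other strand, which had 62.1 ± 2.07 CPM with RBM24 and 52.7 ± 3.57 CPM in controls (SD, n = 3 each). That gain of 9.43 CPM in FEM1A compares with a gain of 0.206 CPM in AC005523.2. FAM209A shares 19.9% of its exon bases with exons of RTF2 on the same strand, at 176 ± 0.828 CPM with RBM24 and 166 ± 2.58 CPM in controls (SD, n = 3 each). IGBP1P2 is the exception. It lies within TEX14 on the same strand, with 5.38% of its exon bases on exons of TEX14. TEX14 had 4.27 ± 0.412 CPM with RBM24 and 0.725 ± 0.193 CPM in controls (SD, n = 3 each). The log2 changes were 2.49 in IGBP1P2 and 2.52 in TEX14. TEX14 met the rule itself and was left out by name, and how many of the IGBP1P2 reads belong to it was not tested.

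**Figure D4:**
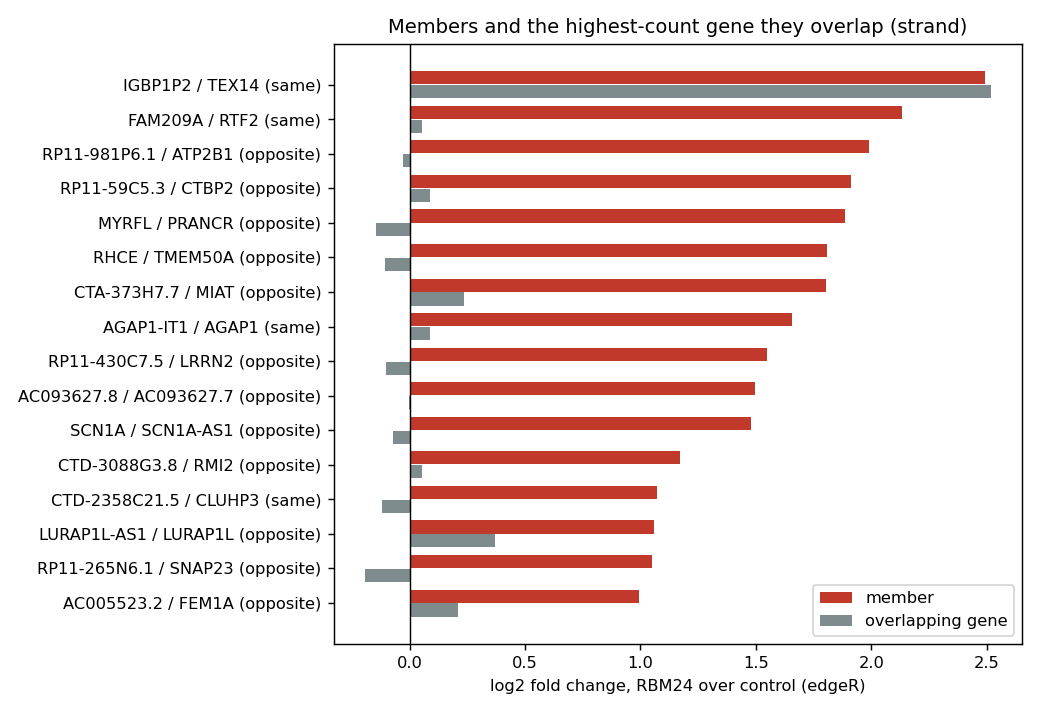
Log2 fold change, RBM24 over control, of the 16 members that overlap a gene with a higher count (red) and of that gene (grey), with the relative strand in brackets. The grey bars lie between -0.19 and 0.37 except for TEX14, at 2.52 beside IGBP1P2 at 2.49.

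Relatives of the members by gene family had 1 call, where 1.54% of all tested genes were called in either direction. Of 87 relatives of 18 members, 52 passed the filter on low counts, and edgeR called 0 higher and 1 lower (3 higher and 4 lower at an unadjusted p under 0.05; DESeq2 called 0 and 1), with a median log2 change of 0.01 where that of all tested genes was -0.00374. The 1 that fell was IL17C, a cytokine made by epithelial cells, at 19.45 ± 2.64 CPM with RBM24 and 33.4 ± 7.82 CPM in controls (SD, n = 3 each; log2 change -0.81, edgeR adjusted p = 0.00622), while IL17F of the same family had reads with RBM24 alone. The RGK relatives of RRAD that were tested, GEM (-0.12) and REM2 (-0.10), did not pass, and neither did the DLX2 relatives DLX1, DLX3, DLX4, DLX5 and DLX6, with log2 changes from -0.35 to 0.40. Among the granin relatives of SCG5, SCG2 (0.36) and VGF (0.43) did not pass. The PIWI relative PIWIL4 had a log2 change of 0.20 and did not pass. The families were chosen by name after the members were known.

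Lists of genes that belong to other tissues held 4 of the 39 members, and their calls stand beside the 1.54% of all tested genes called in either direction. TCAP is not on the muscle list, so these counts depend on what each list holds. A gene that DESeq2 left without an adjusted p counts as not called, so its counts can include genes it did not assess. Whether SCG5 was such a gene is not given here. The same holds for the overlapping genes and relatives above. SCG5 and SCN1A are on a list of 44 neuronal genes, of which 16 were tested; edgeR called SCG5 higher and 0 lower (3 and 1 at an unadjusted p under 0.05; DESeq2 called 0), and the median log2 change was 0.03. TDRD5 and PIWIL2 are on a list of 44 testis and germ line genes, of which 9 were tested; 0 were called (2 higher and 0 lower at an unadjusted p under 0.05; DESeq2 called 0), with a median of 0.02. Of 48 muscle genes, 14 were tested and 0 called (3 higher and 0 lower at an unadjusted p under 0.05; DESeq2 called 0), and the median log2 change was 0.45. Of 43 liver and gut genes, 10 were tested and edgeR called 0 higher and 1 lower, PIGR, the transporter of secretory antibodies (1 and 2 at an unadjusted p under 0.05; DESeq2 called 0 and 1), with a median of -0.07. Of 51 clustered protocadherins 27 were tested and 0 called (0 higher and 2 lower at an unadjusted p under 0.05; DESeq2 called 0), and of 39 HOX genes 34 were tested and 0 called (4 higher and 0 lower; DESeq2 called 0), with medians of -0.03 and 0.05. The squamous epithelial markers had 0 calls of 9 (3 higher and 0 lower at an unadjusted p under 0.05; DESeq2 called 2 higher) and a median of 0.09. The tested fibroblast, immune and endothelial markers, 4, 2 and 3 genes, had 0 calls by edgeR and by DESeq2 (1, 0 and 1 at an unadjusted p under 0.05), with medians of 0.13, 0.07 and -0.24.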

How the data were processed

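Gene expression of 3 CAL27 libraries with RBM24 overexpression and 3 with a control plasmid was analysed from the deposited tables. The authors deposited raw read counts for 32353 genes and FPKM values for 31513, rounded to 2 decimals; the submitters' processing notes name HISAT2 and the build GRCh38, and the counter, annotation release and strand setting are not given in the sources used here. Columns marked NC were read as control plasmid. No library was a copy of another (chi-square per gene between libraries of a group, 4.50 to 21.9).

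CPM divided counts by column sums. All genes were fitted with edgeR 4.0.16 in R 4.3.3 (quasi-likelihood, group only, TMM factors 0.976 to 1.02). Calls used filterByExpr, which left 17887 genes, and a Benjamini-Hochberg adjusted p under 0.05; members' log2 changes came from the fit with every gene, and an SE is the log2 change over the root of F. Counting intervals are Clopper-Pearson at 95%, and the floor for a zero is 3 counts over the group. The edgeR fit behind the calls was tested on simulated counts of genes that passed filterByExpr. The counts were drawn from edgeR's own model with the dispersions it fitted, so the model's fit to these data was not tested. The size and recovery of known changes were checked, and no limit was set on false calls. The fit with every gene, the rule and the counting intervals were not tested in this way. Members, lists and families were chosen with earlier results of these data known. Values per library are given for the 12 members with most reads, the 10 with the highest ratio, list members and those at the limit; others were named after their values were seen. Gene positions came from GENCODE 29, start regions from RefSeq. Alternatives were other scaling, no filter, DESeq2 1.42.0, a replicate block, each library left out, FPKM, and other limits of the rule. DESeq2 kept its default filter on low mean counts, and a gene without an adjusted p there was counted as not called. Tables and figures used Python 3.11.15, pandas 2.3.3 and matplotlib 3.10.9.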

Additional observations from a re-analysis of the deposited data

How the results depend on the processing

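Of the 39 members, 35 met the rule with TMM-scaled totals, 36 with a mean control CPM under 0.5 and 37 on the deposited FPKM, where 58 genes met it. The number was 17 with a ratio of at least 2, 18 with 60 or more RBM24 counts, 8 with the groups exchanged, and 9 there if a lowest control CPM of 0 was allowed, a choice added after the data were seen. Without 1 library the rule kept between 43 and 89 genes, since fewer libraries must separate. All 39 stayed in the set without any 1 control library, which was fixed in advance. Leaving out a control library cannot raise the highest control CPM, and every control value of a member was under 1 CPM. Without any 1 RBM24 library 22 to 29 stayed, as the count minimum then rests on 2 libraries. Of 263 refitted log2 changes of 24 members, 250 moved by less than the spread between replicates, 13 by more and 0 changed sign. The rule asked for a gap of at least 1.5-fold between the groups, which left no room for a change of sign. Over all genes edgeR called 153 higher and 122 lower. Scaling by total counts called 223 genes higher (106 lower), no filter 305 higher and 341 lower, and leaving out 1 library gave 61 to 171 higher and 29 to 198 lower. Among left-out libraries the counts moved most without RBM24 library 2 (61 higher, 29 lower) or 1 (70 and 31); the lower calls also moved without control library 1 (69) or 3 (198). The cause was not tested. With the replicate number as a block, 158 rose and 135 fell, and it moved 0 of the 24 members' changes by more than their spread. Deviations of same-numbered libraries correlated at only 0.0072, 0.0555 and -4e-04, and no library correlated best with that of its own number, so the numbers were not taken as pairs. At these depths 1 read is worth 0.0145 to 0.0187 CPM, so members with 10 control counts or fewer, 11 in all, have wide intervals.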

Other observations

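Over 6 libraries that share the contrast, the genes whose log2(CPM + 0.5) ran most like that of RRAD were CCDC51, TGFBR3 and C6orf89, those most like RP11-172F4.7 were HK1, SIK1B and FAM161B, and those most like SCG5 were IER2, TGIF2-RAB5IF and MRPL44. Pearson's r was 0.9936 to 0.9983 for these 9 pairs, which were picked as the highest of all genes, and the likeness is a description only.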
